A study of Mus musculus with 6 samples.

Results

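The genes of aldosterone-regulated sodium and potassium transport were examined in RNA sequencing libraries of mouse colon. They were taken by symbol from the deposited count tables as a list of 9 genes, and all 9 were found among the 24517 genes in the tables. They comprise the 3 subunits of the epithelial sodium channel (Scnn1a, Scnn1b and Scnn1g), the mineralocorticoid receptor and the genes around it (Nr3c2, Hsd11b2, Sgk1 and Nedd4l), and 2 pump genes (Atp1b1 and Atp12a). The 9 genes all passed the filter on low counts, which kept 16347 genes for testing.

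The study compared 3 NSD2∆IE libraries with 3 NSD2fl/fl libraries. NSD2∆IE mice lacked the histone methyltransferase NSD2 in cells that express Villin-Cre, a driver active in intestinal epithelium, and NSD2fl/fl mice carried the floxed gene and served as controls. HFCD, a diet rich in fat and cholesterol, was fed to both groups. The labels give 16 weeks of feeding, although the methods of the study name a longer time. The methods give a C57BL/6J background for the mouse lines. Labels name the tissue only as colon, with no segment, and give no age at collection and no statement that each library came from its own animal, so that p-values measure the spread between these libraries.

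Aldosterone enters cells of the distal colon and of the kidney collecting duct and binds the mineralocorticoid receptor encoded by Nr3c2. The enzyme encoded by Hsd11b2 inactivates glucocorticoids, which would otherwise occupy this receptor. Sgk1, a kinase gene induced by corticosteroids, acts on the ubiquitin ligase encoded by Nedd4l, which removes the sodium channel from the cell surface. Sodium enters through the apical channel and leaves through the basolateral sodium pump, of which Atp1b1 encodes the beta subunit, while Atp12a encodes the catalytic subunit of the apical pump that takes up potassium in exchange for protons. In the large intestine, the sodium channel and this potassium pump are textbook features of the distal segment.

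The stretch before the start of transcription was available from RefSeq (GRCm38.p6) for 5 of the 9 genes, in 10 windows of 250 bases. Windows of Sgk1, Scnn1g and Scnn1b are printed because the results turn on these genes. Sgk1 had several windows, and the one printed was chosen because it held the palindrome defined below. Each is given 5′ to 3′ on the plus strand, which is the strand of the gene, and distances are counted to the start of the transcript that the window belongs to. The stretches were chr10:21993640-21993889 for Sgk1, chr7:121734229-121734419 for Scnn1g and chr7:121864788-121865037 for Scnn1b. The Sgk1 window lies within the span annotated for the gene. For Scnn1g the last 59 bases of the window lie inside the gene as RefSeq annotates it and are not printed, which leaves 191 bases. Capitals mark matches to the corticosteroid receptor core AGAACA or its palindrome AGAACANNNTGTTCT in Sgk1, and to the GC box GGGCGG in the channel genes, on either strand. The palindrome contains the core on both strands.
Sgk1: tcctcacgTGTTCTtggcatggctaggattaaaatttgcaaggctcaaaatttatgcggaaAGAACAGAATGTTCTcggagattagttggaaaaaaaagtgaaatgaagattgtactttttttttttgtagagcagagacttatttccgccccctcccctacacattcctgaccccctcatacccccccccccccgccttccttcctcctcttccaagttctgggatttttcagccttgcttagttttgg
Scnn1g: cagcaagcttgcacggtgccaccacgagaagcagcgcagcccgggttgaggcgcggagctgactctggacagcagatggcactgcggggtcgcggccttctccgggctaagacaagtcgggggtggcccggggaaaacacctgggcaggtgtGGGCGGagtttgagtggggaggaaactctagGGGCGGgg
Scnn1b: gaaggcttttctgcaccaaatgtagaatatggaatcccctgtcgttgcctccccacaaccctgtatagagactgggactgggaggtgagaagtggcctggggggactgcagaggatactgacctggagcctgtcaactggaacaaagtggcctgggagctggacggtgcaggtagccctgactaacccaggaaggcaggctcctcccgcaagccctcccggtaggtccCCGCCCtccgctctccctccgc

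The palindrome in the Sgk1 window lay at chr10:21993701-21993715, 189 bases before the start of that window's transcript and 965 bases before another annotated start of Sgk1. Among 32851 promoter windows of this length, 3 held the palindrome, those of Acnat2, Sgk1 and Gm35041, and 16.1% held the core. Of the 6 Sgk1 windows, 3 held the core, and only the window chosen for print held the palindrome. The windows of Scnn1b, Scnn1g, Nr3c2 and Atp1b1 did not hold the core. The GC box, present in 32.7% of all windows, occurred in the Scnn1g window with 2 matches, at 98 and 67 bases before the transcript start, and in the Scnn1b window with 1 match, at 22 bases. It was not particular to the channel genes, since the printed Sgk1 window also held 1 match (at 104 bases, not in capitals), the Atp1b1 window 2 and the Nr3c2 window 3. The printed bases of Scnn1g had 67.0% G and C and 14 CG dinucleotides, and those of Scnn1b 60.8% and 7. A match of letters is a description and does not show that a factor binds there.

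Before the 9 genes were compared, the libraries were examined as a whole. Totals ranged from 38041832 to 38604680 counts, so that depth was alike, and 3 counts corresponded to at most 0.0848 CPM. Levels and limits in CPM are counts scaled to a common library total with TMM factors. Nsd2 itself was at 47.8 to 68.9 CPM in NSD2fl/fl libraries and at 23.1 to 27.5 CPM in NSD2∆IE libraries. Xist, the X-linked transcript of female cells, had at most 4 counts in every NSD2fl/fl library and at least 21217 in every NSD2∆IE library, whereas the Y-linked Ddx3y, Eif2s3y, Kdm5d and Uty had at most 1 count in any NSD2∆IE library, so that genotype and this sex-linked pattern cannot be told apart. The methods of the study describe male littermates, and the reads of the NSD2∆IE libraries go against that description. The first principal component held 51.0% of the variance and did not follow genotype: NSD2fl/fl 1, NSD2fl/fl 3 and NSD2∆IE 1 lay on one side (scores of -50.4, -55.2 and -34.9) and NSD2fl/fl 2, NSD2∆IE 2 and NSD2∆IE 3 on the other (55.0, 53.0 and 32.4). The homeobox gene Hoxb13, which is expressed at the posterior end of the body axis, ranged over the same libraries from 0.706 CPM to 364.9 CPM.

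Among the 9 genes, Sgk1 was higher in every NSD2∆IE library than in any NSD2fl/fl library, and Atp12a and Scnn1g differed between libraries of the same genotype by far more than between genotypes. No gene of the 9 passed an adjusted p of 0.05 in edgeR's quasi-likelihood test with Benjamini-Hochberg adjustment over all genes tested, where 0.0306% of all genes did. The genes that passed were only Xist and the Y-linked Ddx3y, Eif2s3y, Kdm5d and Uty. Nsd2, the deleted gene, did not pass, at a log2 fold change of -1.23 ± 0.159 (edgeR adjusted p = 0.302). At the looser threshold that the study applied, which asks for more than a 1.25-fold change and p under 0.05 before adjustment, 0 of the 9 were lower and 1 was higher, against 2.21% and 8.05% of all genes. Groups did not overlap for 0 genes in the lower direction and for 1 in the higher direction, against 7.28% and 11.4% of all genes. A count of 1 among 9 genes is near the shares over all genes, and Sgk1 is given as a description. By sign alone, 8 genes had a lower estimate in NSD2∆IE and 1 a higher, with a median log2 fold change of -0.23 beside -0.04 over all genes tested, although the sign for Hsd11b2 and Nedd4l turned positive when library totals alone were used for scaling, which moved the median of all genes by 0.13.

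**Figure D1:**
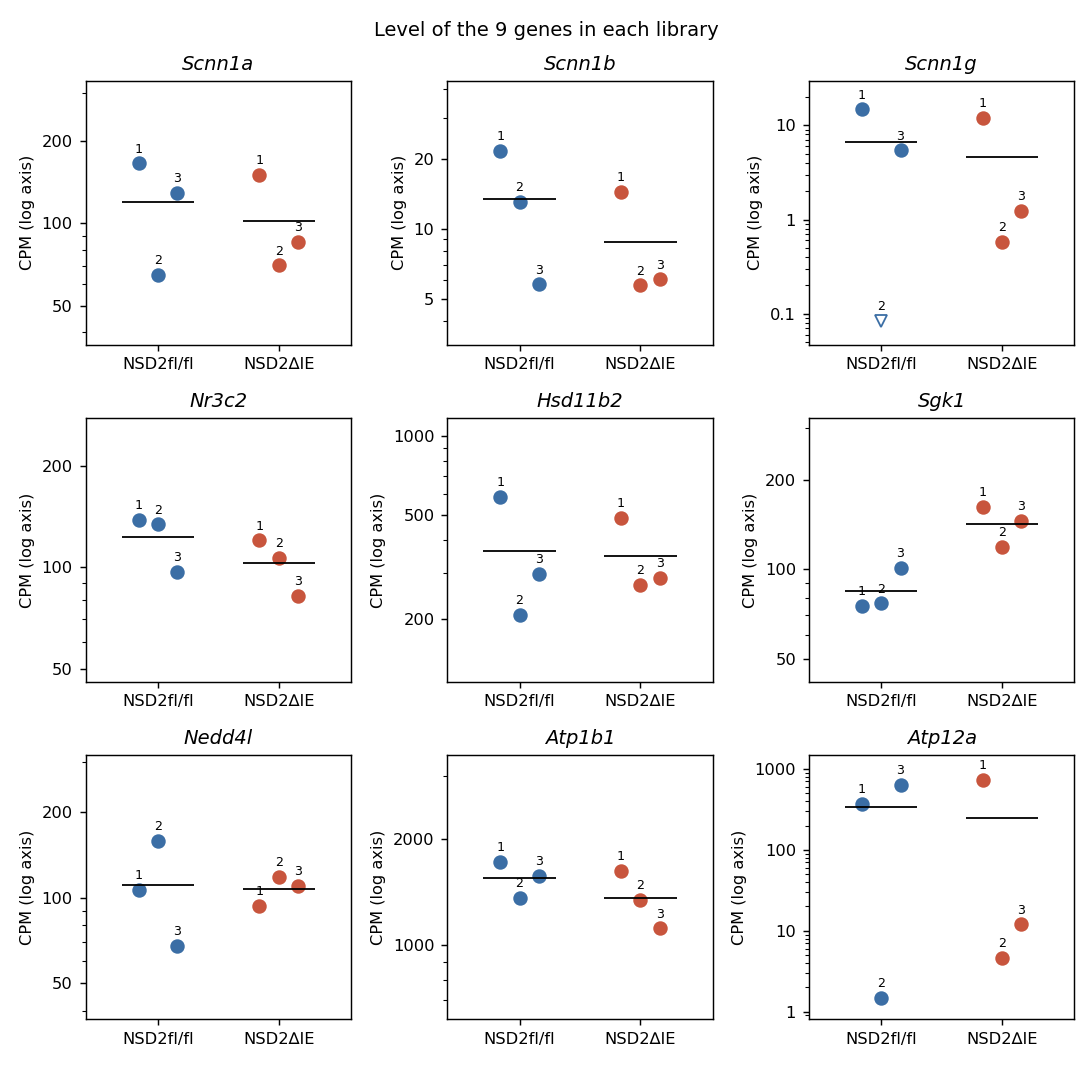
Level of the 9 genes in each library, in CPM on a log axis, for NSD2fl/fl (blue) and NSD2∆IE (red); numbers name the replicate, lines mark the group mean, and the open triangle marks a count of 0 drawn at the level of 3 counts. Sgk1 is the gene whose groups do not overlap, while Atp12a and Scnn1g span 502-fold and at least 173-fold.

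The alpha subunit gene of the sodium channel, Scnn1a (chr6:125314271-125344943), encodes the subunit that the channel requires to conduct. Its level was 165.6, 65.0 and 129.4 CPM in NSD2fl/fl libraries 1 to 3 and 150.6, 70.3 and 85.6 CPM in NSD2∆IE libraries 1 to 3. The groups overlapped throughout, with library 1 the highest in both and library 2 the lowest in both. The log2 fold change was -0.23 ± 0.403 (SE; edgeR adjusted p = 0.850).

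Scnn1b (chr7:121865038-121918728) and Scnn1g (chr7:121734420-121768482) encode the beta and gamma subunits, which carry the channel to the surface together with alpha, and lie as neighbours 96.6 kb apart. Scnn1b was at 21.7, 13.0 and 5.76 CPM in NSD2fl/fl and at 14.5, 5.70 and 6.05 CPM in NSD2∆IE. Scnn1g was at 14.7, 0 and 5.39 CPM in NSD2fl/fl and at 11.98, 0.580 and 1.23 CPM in NSD2∆IE. Despite their shared locus the genes differed in pattern: NSD2fl/fl 2, without a single Scnn1g read among its 38313125 counts, had 461 Scnn1b reads, more than the 205 of NSD2fl/fl 3, which had 192 Scnn1g reads. The count of 0 allows up to 3 counts, or 0.0848 CPM, by counting error only. Neither gene was separated by genotype, with log2 fold changes of -0.63 ± 0.552 for Scnn1b (edgeR adjusted p = 0.710) and -0.54 ± 1.62 for Scnn1g (edgeR adjusted p = 0.919).

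To compare the subunits with each other, FPKM was used, which scales counts to gene length. Scnn1a was at 35.0, 12.5 and 25.3 FPKM in NSD2fl/fl and at 32.3, 15.1 and 19.3 FPKM in NSD2∆IE. Scnn1b was at 8.14, 4.46 and 2.00 FPKM and at 5.51, 2.17 and 2.42 FPKM. Scnn1g was at 4.87, 0 and 1.65 FPKM and at 4.03, 0.195 and 0.434 FPKM. The order alpha over beta over gamma held in 6 of 6 libraries. On the scale of log2(FPKM + 0.1), Scnn1a exceeded Scnn1b by 2.56 ± 0.730 (SD, n = 6) and Scnn1g by 4.58 ± 1.65 (SD, n = 6), and Scnn1b exceeded Scnn1g by 2.02 ± 2.02 (SD, n = 6). Each of the 3 differences had an exact two-sided sign-flip permutation p of 0.0312 (adjusted 0.0312), the smallest that 6 libraries allow, and any single library left out raises this limit to 0.0625. With log2(FPKM + 1) the differences were 2.28, 3.33 and 1.05 in the same order. Their size thus depended on the constant added, most of all for Scnn1g, which had 0 FPKM in NSD2fl/fl 2.

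**Figure D2:**
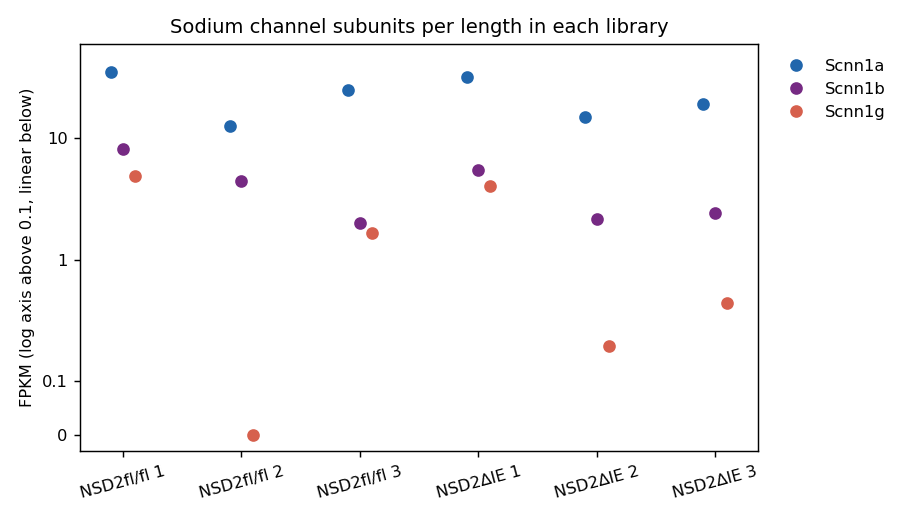
Scnn1a, Scnn1b and Scnn1g in each library, in FPKM (log axis above 0.1, linear below); points are single libraries. Alpha lies above beta and beta above gamma in all 6 libraries, with beta and gamma 0.26 apart on the log2(FPKM + 0.1) scale in NSD2fl/fl 3 and 5.51 apart in NSD2fl/fl 2. In NSD2fl/fl 2 Scnn1g had no reads, so that distance depends on the 0.1 added.

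The balance of the subunits was not separated by genotype. The FPKM of Scnn1a was 4.30, 2.81 and 12.7 times that of Scnn1b in NSD2fl/fl libraries and 5.87, 6.94 and 7.96 times in NSD2∆IE libraries. The log2 ratio of alpha to beta was 0.35 higher in NSD2∆IE (exact permutation p = 0.7), that of alpha to gamma 0.06 higher (exact permutation p = 0.9), and that of beta to gamma 0.29 lower (difference of -0.29, exact permutation p = 0.9). These tests were two-sided with an adjusted p of 0.9 each, and 3 libraries against 3 cannot give a p below 0.1.

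Nr3c2 (chr8:76898083-77245012), the mineralocorticoid receptor gene, was among the steady genes of the list. It was at 138.5, 133.9 and 97.0 CPM in NSD2fl/fl and at 120.1, 106.6 and 82.3 CPM in NSD2∆IE. The groups overlapped, with library 3 the lowest of each, and the log2 fold change was -0.26 ± 0.195 (edgeR adjusted p = 0.665). Its SD within groups, in log2 CPM, stood at percentile 55.0 of all genes tested.

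Hsd11b2 (chr8:105518746-105523988), whose enzyme protects the receptor from glucocorticoids, was at 583.2, 208.0 and 297.8 CPM in NSD2fl/fl and at 486.4, 269.3 and 287.7 CPM in NSD2∆IE. Library 1 was the highest and library 2 the lowest of both groups, as for Scnn1a, and the groups overlapped. The log2 fold change was -0.06 ± 0.415 (edgeR adjusted p = 0.966). Per length, Hsd11b2 exceeded Nr3c2 in all 6 libraries, by 20.4, 7.53 and 14.9 times in NSD2fl/fl and by 19.6, 12.3 and 17.0 times in NSD2∆IE.

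Sgk1 (chr10:21882184-21999903), the corticosteroid-induced kinase gene whose promoter palindrome is printed above, was the member that differed most clearly between the groups. These groups also differed in the sex-linked pattern of Xist and Y-linked reads. Sgk1 was at 75.1, 76.8 and 101.2 CPM in NSD2fl/fl and at 162.1, 118.8 and 145.9 CPM in NSD2∆IE. The lowest NSD2∆IE library lay above the highest NSD2fl/fl library. The means were 84.4 ± 14.6 CPM and 142.3 ± 21.9 CPM (SD, n = 3 each), and the log2 fold change was 0.75 ± 0.172, or 1.69-fold, with an edgeR p of 0.00352 before and 0.302 after adjustment. Over 18 other ways of processing, the log2 fold change stayed between 0.66 and 0.91 with an unadjusted p of at most 0.0464. The adjusted p ranged from 0.0116, with DESeq2, to 0.990, without NSD2∆IE 3, and DESeq2 was the only setting in which Sgk1 passed 0.05. DESeq2 called 2.79% of all genes at that threshold.

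Marker genes of other tissue layers had higher levels in the same libraries as Sgk1. All 8 smooth muscle markers had higher estimates in NSD2∆IE, with a mean log2 CPM of 6.85 to 8.47 in NSD2fl/fl and 8.77 to 9.86 in NSD2∆IE. All 8 enteric neuron markers did as well (2.61 to 3.67 and 3.999 to 4.33), and so did the 6 adipocyte markers tested (-1.62 to 0.75 and 1.47 to 3.38), while the seventh, Lep, was near 0. The 10 general epithelial markers all had lower estimates, but their mean overlapped between the groups (9.55 to 10.2 and 9.54 to 9.62). Lower estimates were also found for 7 of 7 plasma cell markers (5.56 to 6.13 and 5.25 to 5.56). The means of surface colonocyte markers (8.92 to 9.55 and 8.98 to 9.48) and macrophage markers (4.96 to 5.42 and 5.31 to 5.40) overlapped as well. None of these markers passed an adjusted p of 0.05 in edgeR. With the smooth muscle score as a covariate, an alternative added after seeing the data, the log2 fold change of Sgk1 was 0.66 ± 0.263 (edgeR adjusted p = 0.901), and with the epithelial score it was 0.73 ± 0.226 (edgeR adjusted p = 0.516). In bulk tissue, a different share of a cell type and a different amount of RNA per cell cannot be told apart, and the part of these layers in the level of Sgk1 was otherwise not tested.

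Nedd4l (chr18:64884480-65217826) encodes the ligase on which the SGK1 kinase acts. It was at 106.1, 157.8 and 67.6 CPM in NSD2fl/fl and at 93.3, 118.2 and 110.0 CPM in NSD2∆IE. The NSD2fl/fl libraries spanned the whole NSD2∆IE range, and the log2 fold change was -0.04 ± 0.292 (edgeR adjusted p = 0.966). Library 2 was the highest in both groups, in contrast to Scnn1a and Hsd11b2, for which it was the lowest.

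Atp1b1 (chr1:164437099-164458355), the beta subunit gene of the sodium pump, was the most abundant and the most even of the 9 genes. It was at 1719, 1359 and 1569 CPM in NSD2fl/fl and at 1622, 1346 and 1116 CPM in NSD2∆IE. The range over 6 libraries was 1.54-fold, the groups overlapped, and the log2 fold change was -0.19 ± 0.206 (edgeR adjusted p = 0.767).

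Atp12a (chr14:56364669-56388551), the potassium-absorbing pump gene, was at 372.3, 1.47 and 637.4 CPM in NSD2fl/fl and at 737.0, 4.62 and 11.98 CPM in NSD2∆IE. In NSD2fl/fl 1, NSD2fl/fl 3 and NSD2∆IE 1 it had 14338 to 29211 reads, and in the other 3 libraries 52 to 497. This was a 502-fold range. The SD within groups stood at percentile 99.95 of all genes tested for Atp12a and at 99.8 for Scnn1g, beside 92.4 for Scnn1b, 85.7 for Scnn1a and 85.2 for Hsd11b2. The log2 fold change of Atp12a was -0.42 ± 2.08 (edgeR adjusted p = 0.951), and it rested on single libraries: it was -5.34 without NSD2∆IE 1 (edgeR adjusted p = 0.428) and 0.41 without NSD2fl/fl 3. For Scnn1g it was -2.89 without NSD2∆IE 1 and 0.77 without NSD2fl/fl 1.

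The libraries split in the same way for Atp12a, Scnn1g and the posterior marker Hoxb13, although the order among the highest 3 differed. Hoxb13 was at 364.9, 0.706 and 340.5 CPM in NSD2fl/fl and at 310.0, 4.97 and 26.2 CPM in NSD2∆IE. From the lowest, the order for all 3 genes began with NSD2fl/fl 2, NSD2∆IE 2 and NSD2∆IE 3, and the same 3 libraries were the lowest for Scnn1a, Hsd11b2 and Atp1b1, although the range of Atp1b1 was 1.54-fold. Scnn1b did not follow this order, with NSD2∆IE 2 and NSD2fl/fl 3 the lowest. The libraries NSD2fl/fl 2, NSD2∆IE 2 and NSD2∆IE 3 also lay on the same side of the first principal component. That component held 51.0% of the variance over all genes tested, so the split was not particular to the genes named here. The 6 posterior Hox genes, as a mean log2 CPM, gave 3.30, -0.61 and 3.59 in NSD2fl/fl and 2.84, 0.40 and 0.67 in NSD2∆IE. By single gene, Hoxb13 spanned 517-fold, Hoxd13 at least 512-fold, Hoxd12 at least 16.3-fold, Hoxd10 5.92-fold, Hoxa13 4.86-fold and Hoxd11 2.90-fold. Among NSD2fl/fl libraries, Hoxb13 had 25 to 14052 reads, while Hoxd10 had 105 to 159 and Hoxd11 78 to 130. The 6 genes thus did not share the split evenly. General epithelial markers did not show the order of Hoxb13, since NSD2fl/fl 2 had their highest value, 10.2. Since the labels name no segment, a position along the colon cannot be assigned to a library from them.

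**Figure D3:**
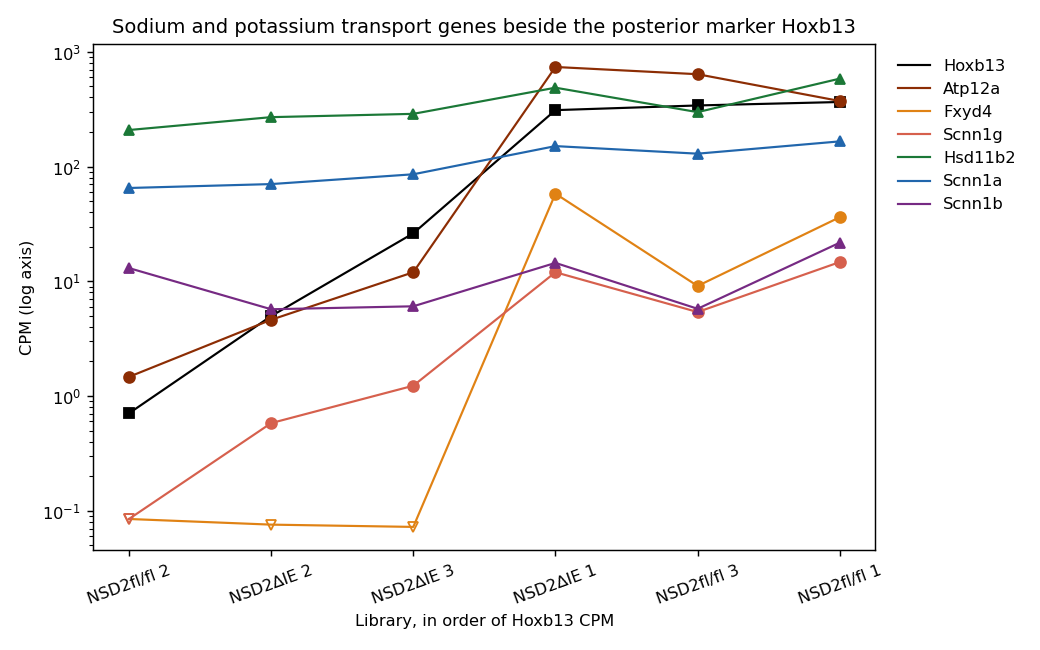
CPM on a log axis in the 6 libraries, placed in order of Hoxb13 (black squares); lines join the points of a gene for the eye, and open triangles mark counts of 0 drawn at the level of 3 counts. Atp12a, Fxyd4 and Scnn1g are low in the 3 libraries with the least Hoxb13, Hsd11b2 and Scnn1a are lower there by less, and Scnn1b does not follow.

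When the posterior Hox score was entered as a covariate, the estimate for genotype turned from negative to positive for Scnn1g, at 1.51 ± 0.724 (edgeR adjusted p = 0.354), for Atp12a, at 1.09 ± 0.464 (edgeR adjusted p = 0.304), for Hsd11b2, at 0.18 ± 0.261 (edgeR adjusted p = 0.768), and for Scnn1a, at 0.04 ± 0.156 (edgeR adjusted p = 0.920). The estimate for Sgk1 was 0.81 ± 0.151 in that fit (edgeR adjusted p = 0.169).

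To find the genes whose pattern was most like each channel subunit, log2 CPM was centred on its mean over the 6 libraries and the root mean square difference was taken. For Scnn1g the nearest genes were Gm11538 (0.57), a long noncoding RNA annotated beside Hoxb13 on chromosome 11, Fut9 (0.72), Hoxb13 itself (0.90), Gal3st2b (0.92) and Tgm3 (0.93), and Atp12a ranked 48th (1.40). For Scnn1a they were Nmnat3 (0.07), Repin1 (0.07), Ankrd10 (0.09), Tarbp1 (0.10) and Gpr119 (0.10), and Hsd11b2 ranked 153rd (0.23). For Scnn1b they were Gm42323 (0.08), Gm40096 (0.21), Ndnf (0.24), Tbx6 (0.26) and Gm31024 (0.29), each with 8 to 102 reads per library. Some genes near the other subunits also had few reads in some libraries: Gpr119 had 11 to 35, Gm11538 2 to 674 and Fut9 4 to 623. The distances describe 6 libraries of like depth that differ in their marker genes, and carry no test.

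Across the 9 genes, the median FPKM over 6 libraries ran from Atp1b1 (550.2) through Hsd11b2 (159), Atp12a (49.3), Sgk1 (26.0), Scnn1a (22.3), Nr3c2 (13.0), Nedd4l (6.13) and Scnn1b (3.44) to Scnn1g (1.04). Atp1b1 exceeded Hsd11b2, Nr3c2 exceeded Nedd4l, and Scnn1b exceeded Scnn1g in 6 of 6 libraries. Other neighbours changed places: Atp12a exceeded Sgk1 in 3 of 6 libraries, Sgk1 exceeded Scnn1a in 4, Nedd4l exceeded Scnn1b in 4, and Hsd11b2 exceeded Atp12a, and Scnn1a exceeded Nr3c2, in 5. This order rests on the length counted per gene, which was 18467 bases for Nedd4l and 8969 for Nr3c2. In CPM, which is not scaled to length, Nedd4l exceeded Nr3c2 in NSD2fl/fl 2, NSD2∆IE 2 and NSD2∆IE 3.

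The wider pathway was described by 53 further genes in 6 lists, of which 52 were tested, Kcnj1 having too few reads. No gene passed an adjusted p of 0.05 in edgeR, and 30 had lower and 22 higher estimates, with a median log2 fold change of -0.03. At the study threshold 0 of the 52 were lower and 4 were higher, against 2.21% and 8.05% of all genes, and groups did not overlap for 3 lower and 2 higher genes, against 7.28% and 11.4% of all genes. These counts do not exceed the shares over all genes, and the 4 genes are given as a description. They were Fxyd1, a sodium pump regulator of muscle, Usp2, a deubiquitinase that acts on the sodium channel, Per1, a clock gene also induced by corticosteroids, and Kcnma1, a potassium channel gene active in smooth muscle and colon epithelium.

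Fxyd1 was at 18.1, 12.1 and 17.0 CPM in NSD2fl/fl and at 24.7, 33.2 and 39.2 CPM in NSD2∆IE, a log2 fold change of 1.04 ± 0.226 (edgeR adjusted p = 0.302). The groups did not overlap, and smooth muscle markers were higher in the same libraries. With the smooth muscle score as a covariate, the log2 fold change of Fxyd1 was 0.51 ± 0.198 (edgeR adjusted p = 0.901). With the epithelial score it was 0.79 ± 0.221 (edgeR adjusted p = 0.516). The part of smooth muscle in the level of Fxyd1 was otherwise not tested. Within the list of sodium pump subunits and FXYD regulators, 6 of 8 genes had higher estimates, with a median of 0.46. Kcnma1 was at 46.1, 28.6 and 33.9 CPM in NSD2fl/fl and at 43.6, 54.9 and 55.7 CPM in NSD2∆IE, which overlapped (log2 fold change of 0.50 ± 0.199, edgeR adjusted p = 0.424).

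Fxyd4, which encodes a pump regulator known from aldosterone-responsive epithelium and was singled out after its values were seen, varied with Atp12a and Scnn1g. It had 36.1, 0 and 9.10 CPM in NSD2fl/fl and 58.0, 0 and 0 CPM in NSD2∆IE. The 3 libraries with no Fxyd4 reads were those with the least Atp12a, Scnn1g and Hoxb13. Its log2 fold change was 0.36 ± 2.37 (edgeR adjusted p = 0.966).

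Usp2 was at 39.3, 24.8 and 23.1 CPM in NSD2fl/fl and at 52.8, 50.01 and 49.2 CPM in NSD2∆IE, without overlap (log2 fold change of 0.80 ± 0.210, edgeR adjusted p = 0.307). Per1 was at 54.5, 34.0 and 32.7 CPM and at 72.4, 49.98 and 64.4 CPM, with NSD2∆IE 2 below NSD2fl/fl 1 (log2 fold change of 0.62 ± 0.238, edgeR adjusted p = 0.414). Usp2 and Per1 both cycle with the circadian clock, and 2 clock genes outside the lists, chosen after these values were seen, were examined beside them. Arntl, which peaks in antiphase to Per1, was at 17.2, 32.4 and 38.8 CPM in NSD2fl/fl and at 14.5, 8.96 and 6.53 CPM in NSD2∆IE, without overlap (log2 fold change of -1.56 ± 0.391, edgeR adjusted p = 0.303). Dbp was at 88.9, 65.6 and 34.0 CPM and at 98.0, 96.0 and 87.6 CPM, with overlap (log2 fold change of 0.58 ± 0.317, edgeR adjusted p = 0.559). The labels give no time of day of collection, and its part in the levels of Sgk1, Usp2 and Per1 was not tested.

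The remaining lists showed small and scattered differences. Of 7 corticosteroid-induced genes, 3 had lower and 4 higher estimates, with a median of 0.13 and Per1 the only one past the study threshold. Of 7 proteases that activate the channel and their inhibitors, 6 had lower estimates (median of -0.25), as had 12 of 16 kinases and ubiquitin ligase partners (median of -0.10). In the latter list Pdpk1 and Wnk1 had lower values in all NSD2∆IE libraries without overlap, as had 7.28% of all genes. They encode kinases upstream of or beside SGK1 and were named after their values were seen. Their log2 fold changes were -0.19 ± 0.092 (edgeR adjusted p = 0.500) and -0.17 ± 0.116 (edgeR adjusted p = 0.629). Of 5 receptor partners and genes of corticosteroid metabolism, 3 had lower estimates (median of -0.07), and the receptor chaperone gene Hsp90ab1 did not overlap, at -0.42 ± 0.201 (edgeR adjusted p = 0.499). Of 9 other transporters tested, 4 had lower and 5 higher estimates (median of 0.04).

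**Figure D4:**
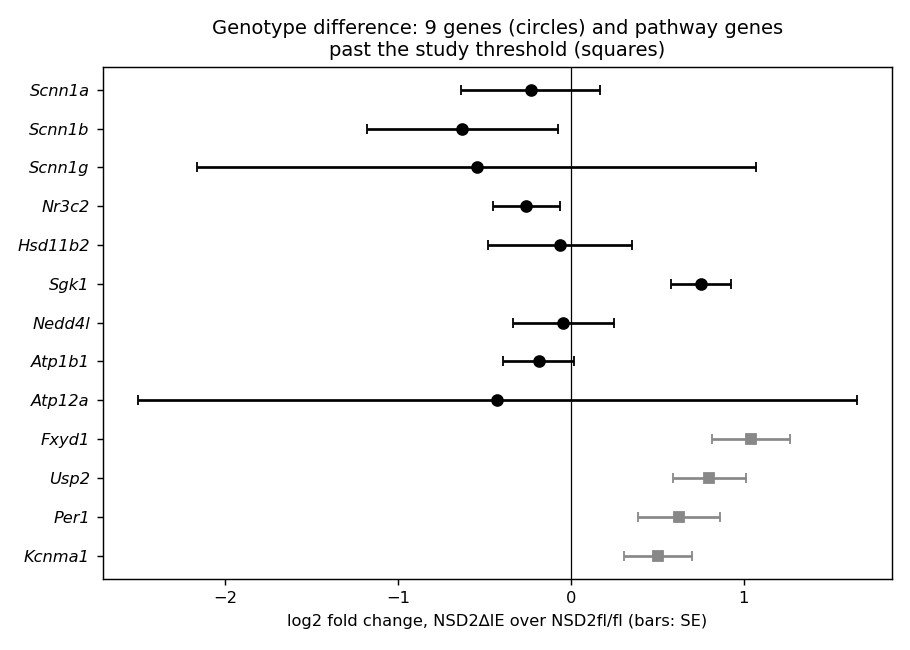
Log2 fold change of NSD2∆IE over NSD2fl/fl with its standard error, from edgeR on all 6 libraries, for the 9 genes (circles) and for the 4 pathway genes past an unadjusted p of 0.05 and a 1.25-fold change (squares). Bars of Sgk1 and of the 4 pathway genes lie above 0, and those of Scnn1g (SE of 1.62) and Atp12a (SE of 2.08) are the widest.

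The direction of each difference was compared over 18 other ways of processing. The estimate stayed above 0 for Sgk1 and below 0 for Scnn1b and Atp1b1 in all 18, with ranges of -1.20 to -0.11 for Scnn1b and -0.33 to -0.06 for Atp1b1. Nr3c2 changed sign in 1 of them, Scnn1a and Scnn1g in 2, Atp12a in 4, Hsd11b2 in 8 and Nedd4l in 10.

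**Figure D5:**
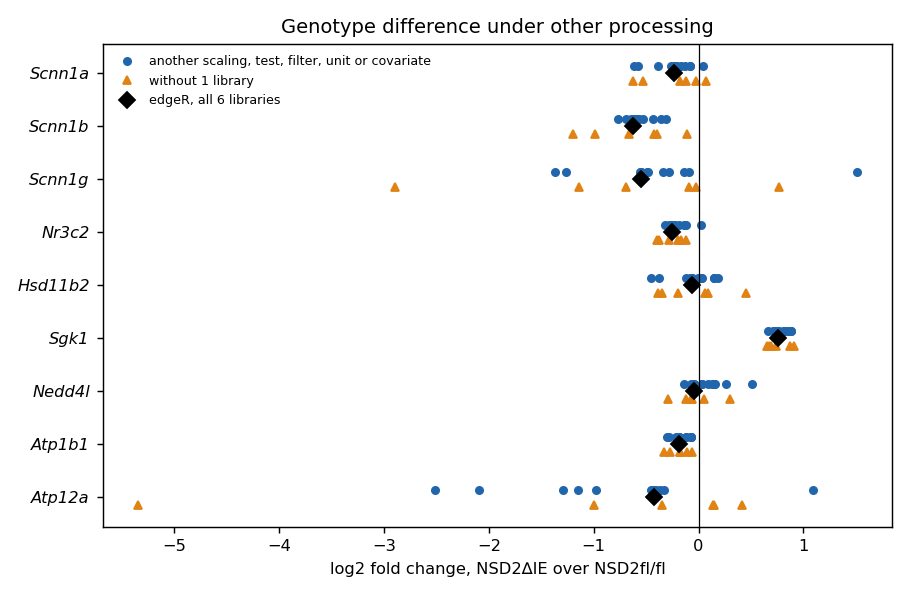
Log2 fold change of each of the 9 genes in edgeR with all 6 libraries (diamonds), under another scaling, test, filter, unit or covariate (circles) and without 1 library (triangles). Values of Sgk1 stay between 0.66 and 0.91, and those of Atp12a run from -5.34 to 1.09.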

How the data were processed

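Total RNA of 6 mouse colon libraries was extracted with TRIzol. The authors deposited whole-number counts and FPKM per gene for each library. The submitters' processing notes name fastp, HISAT2, HTSeq, R 3.2.0 and the mm10 build, and their roles, the annotation and the use of strand are not given in the sources used here, so overlapping or antisense genes cannot be told apart. For 17863 genes the length implied by counts and deposited FPKM was a whole number within 0.0638 bases. No library repeated another (chi-square of at least 35.5 per degree of freedom). Groups and replicate numbers came from the labels.

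Counts were fitted with edgeR 4.0.16 in R 4.3.3 (filterByExpr, TMM factors, glmQLFit and glmQLFTest, two-sided, no covariate) on all 6 libraries, with Benjamini-Hochberg adjustment over 16347 genes. Standard errors were taken from the log2 fold change and the square root of its F statistic, by division. FPKM was tested as log2(FPKM + 0.1). Alternatives used RLE, upper-quartile or no scaling factors, DESeq2 1.42.0, limma 3.58.1 (voom or log2 FPKM), no filter, the replicate block, marker scores as covariates, a 1.5-fold threshold and each library left out. Scripts were tested on simulated data. The 9 genes, the pathway and marker lists and the tests were chosen with earlier results of these data known. All 9 genes are described. Some genes of the sodium pump list are not reported here and enter no count of the list. Pathway genes are named where they pass the study threshold, or do not overlap and are among the 3 largest changes of their list, with exceptions stated. For each channel subunit the 5 nearest genes are named. Gene positions are from RefSeq on GRCm38.p6. The 3-count limit covers counting error only.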

Additional observations from a re-analysis of the deposited data

How the results depend on the processing

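Each group had 3 libraries of like depth, Scnn1g and Fxyd4 had counts of 0 in some of them, and genotype cannot be told apart from the sex-linked pattern. Counts at the study threshold are given with the share of all genes that passed it in the same fit. With the posterior Hox score as a covariate, log2 fold changes reversed to 0.041 for Scnn1a, 1.51 for Scnn1g, 0.18 for Hsd11b2 and 1.09 for Atp12a, and the number of members higher at the study threshold was 2, with 2 pathway genes lower and 8 higher (3.77% and 11.3% of all genes). With the smooth muscle score, Nr3c2 was at 0.026 and Nedd4l at 0.51, and 2 pathway genes were higher (2.25% of all genes); with the epithelial score Nedd4l was at 0.26. With library totals alone Hsd11b2 was at 0.036 and Nedd4l at 0.087, with upper-quartile factors Nedd4l was at 0.028 and with limma-voom at 0.15, where 1 pathway gene was lower (3.63% of all genes). With log2(FPKM + 1), Hsd11b2 was at 0.15 and Nedd4l at 0.13, and with log2(FPKM + 0.1) they were at 0.15 and 0.16, with 7 pathway genes higher (11.5% of all genes). With DESeq2, Sgk1 was at 0.76 and passed an adjusted p of 0.05, as 1 member and 2 pathway genes (Fxyd1, adjusted p = 0.00587, and Usp2, adjusted p = 0.0357) did, and 1 pathway gene was lower at the study threshold (2.64% of all genes). Apart from fewer samples where a library was left out, the cause was not tested.

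The labels do not state whether replicate numbers pair the libraries. Deviations of same-numbered libraries correlated at 0.50, 0.64 and -0.17 across genes. These values do not decide the question, since libraries with different numbers also correlated at up to 0.45. With the replicate block, Hsd11b2 was at 0.020 and Nedd4l at 0.030, and 7 pathway genes were higher at the study threshold (8.94% of all genes).

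With each library left out in turn, log2 fold changes ran from -0.62 to 0.069 for Scnn1a, from -2.89 to 0.77 for Scnn1g, from -0.38 to 0.46 for Hsd11b2, from -0.29 to 0.30 for Nedd4l and from -5.34 to 0.41 for Atp12a. The number of members lower at the study threshold was 0 to 1, the latter (Atp12a) without NSD2∆IE 1, where 3.72% of all genes were lower. Pathway genes lower numbered 0 to 3 (3 without NSD2fl/fl 1, 2 without NSD2∆IE 1, 1 without NSD2fl/fl 3), and those higher 2 to 7 (7 without NSD2fl/fl 1, 2 without NSD2fl/fl 3 or NSD2∆IE 3). In the same fits the share of all genes ran from 0.879% to 4.48% lower and from 4.06% to 10.3% higher. Subunit differences ran from 2.35 to 2.78 for alpha over beta, from 4.10 to 4.94 for alpha over gamma and from 1.32 to 2.37 for beta over gamma, with an exact permutation p of 0.0625, the smallest that 5 libraries allow. Changes of these ratios between genotypes ran from -0.11 to 0.96, from -0.81 to 1.27 and from -1.25 to 1.38.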
